A study of Mus musculus with 48 samples.

Results

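Tumours that held much or little RNA of S100a8 were compared within the 4 groups of a study of untreated mouse tumours. S100a8 encodes a subunit of calprotectin, the calcium-binding protein that fills the cytosol of neutrophils. In each group of 12 libraries the 4 with the highest S100a8 CPM (counts-per-million, the count of a gene scaled to the total count of its library) and the 4 with the least were taken. This gave 16 S100a8-high and 16 S100a8-low libraries, 32 of 48 in all, and 16 libraries in between that entered no test. The libraries were chosen on the readout S100a8, so its values are a description of the choice and no test of it is given. The working name of the comparison was neutrophil-rich against neutrophil-poor tumours, and the neutrophil genes below were read against that name.

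RNA was sequenced from whole tumours grown under the skin of female Balb/c mice aged 8 to 9 weeks, 1 mouse per library. AB1 is a mouse mesothelioma line whose tumours were removed on day 8 after injection, and Renca is a mouse kidney cancer line whose tumours were removed on day 10. All samples share 1 treatment label, anti-CTLA4 plus anti-PDL-1, a checkpoint antibody pair, and were taken before it. Each mouse is labelled by its later response, which gives 12 responders and 12 non-responders per tumour type. Library totals ran from 16441426 to 27838494 counts. Each mouse carried 1 of 2 established lines, and the whole tumour was taken with the host cells in it.

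Neutrophils are short-lived white cells that leave the blood along CXC chemokines through the receptor CXCR2, and that mature and survive under granulocyte colony-stimulating factor through the receptor CSF3R. They kill with granule proteases, antimicrobial proteins and the reactive oxygen of the NADPH oxidase, and they release calprotectin, a pair of S100A8 and S100A9. In tumours they are described both as tumour-killing and as suppressors of T cells.

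S100a8 stood far lower in Renca than in AB1. The S100a8-low libraries held 1.19 to 20.7 CPM in AB1 and 0.628 to 0.976 in Renca, and the S100a8-high libraries held 10.4 to 57.0 and 1.3 to 2.01. In reads, the Renca classes were 13 to 19 against 27 to 42 S100a8 counts, while the AB1 classes were 33 to 494 against 251 to 1373. At the edge of the high class, the last library taken and the first left out held 10.4 and 10.4 CPM in AB1 non-responders, 41.4 and 27.2 in AB1 responders, 1.3 and 1.18 in Renca non-responders and 1.75 and 1.45 in Renca responders. At the edge of the low class the pairs were 4.38 and 6.37, 20.7 and 21.8, 0.976 and 1.09, and 0.863 and 0.869 in the same order. Counting error alone (95% exact Poisson interval) put the highest low library of Renca non-responders at 0.588 to 1.52 CPM and the lowest high one at 0.859 to 1.90, so the Renca classes overlapped within counting error. The same intervals were 3.56 to 5.33 and 9.19 to 11.8 CPM in AB1 non-responders and did not overlap.

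**Figure D1:**
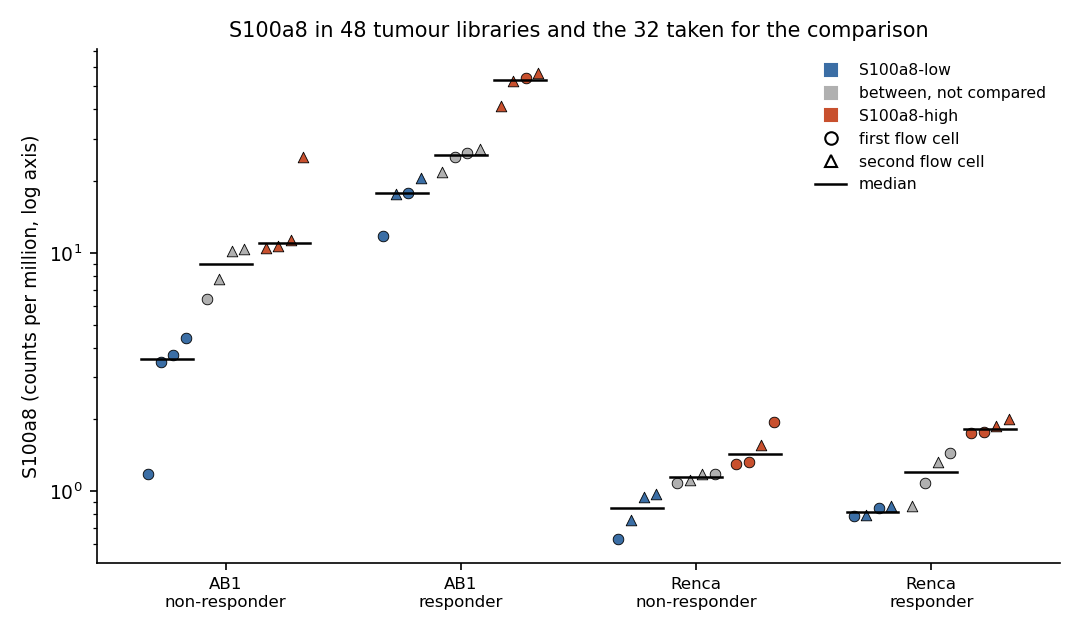
S100a8 in CPM on a log axis for each of the 48 libraries, by group, with S100a8-low (blue), not compared (grey) and S100a8-high (red) libraries side by side, symbols for the flow cell and a line at the median of each class. The Renca classes sit between 0.628 and 2.01 CPM, below nearly all AB1 libraries, and the 4 low libraries of AB1 non-responders are all circles while the 4 high ones are all triangles.

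Each tumour type was sequenced on 2 flow cells, and the classes were not balanced over them. In AB1 non-responders all 4 S100a8-low libraries came from the first flow cell and all 4 S100a8-high libraries from the second, so class and flow cell cannot be told apart there. AB1 responders had 1 high and 2 low libraries on the first flow cell, Renca non-responders had 3 and 1, and Renca responders had 2 and 2. The tests below carry the flow cell of each tumour type as a term, and fits without the AB1 non-responders are given for AB1. In bulk tissue, fewer cells of a type and less RNA per cell cannot be told apart. Of the defining neutrophil genes in the table, Ly6g, which encodes a surface protein of mouse neutrophils, had 13 to 24 reads in the high libraries of AB1 responders and 0 to 4 in all 16 Renca libraries. These reads set the tumour types side by side and not the classes within AB1. Ly6g reads of the low AB1 libraries and of AB1 non-responders are not reported here. By median CPM, Ly6g rose from low through uncompared to high libraries in 1 of the 4 groups and fell in 1. Camp and Ngp, genes of the secondary granules, had 0 reads in 17 and 19 of the 32 libraries. In Renca the high libraries were not above the low ones for Ly6g, but 0 to 4 reads are too few to judge this. The name neutrophil-rich could therefore not be checked there by this marker, and the classes are called by S100a8.

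S100a9, which encodes the partner of S100a8 in calprotectin, was 1 of the 4 genes that passed adjustment over both tumour types. It is on the reverse strand of chromosome 3 (GRCm38, chr3:90692632-90695721). The S100a8-low libraries of AB1 responders held 31.8, 38.4, 48.1 and 61.6 CPM of S100a9, and the S100a8-high ones 110, 126, 130 and 133. AB1 non-responders held 3.63, 4.99, 6.93 and 7.11 CPM in low and 22.5, 23.8, 24.1 and 60.1 in high libraries. Renca responders held 0.73, 1.40, 1.54 and 1.70 CPM against 2.58, 2.73, 3.81 and 6.31. In these 3 groups every high library lay above every low one, which 0.0233% of the 17203 tested genes did in at least 3 groups. In single groups, all 4 high libraries lay above all 4 low ones for 2.52% of genes in AB1 non-responders, 3.94% in AB1 responders, 0.622% in Renca non-responders and 2.4% in Renca responders. Separation in 2 groups is given below as a description, because the share of all genes doing so is not reported here. Renca non-responders overlapped, at 1.34, 1.56, 1.61 and 1.76 CPM in low and 1.45, 1.5, 1.69 and 2.79 in high libraries. Over the 4 groups S100a9 rose by 1.36 ± 0.22 on the log2 scale (estimate ± standard error, 16 against 16 libraries, adjusted p = 0.0253, edgeR's quasi-likelihood test with Benjamini-Hochberg adjustment). It remained called in 29 of the 32 fits that left out 1 library, at 1.14 to 1.44. The 3 exceptions left out AB1 responder 2, 6 or 12 (adjusted p = 0.245, 0.0535 and 0.0920). It stood at 1.06 within the first flow cells alone (adjusted p = 1.0) and at 1.27 within the second (0.160), and with Ptprc, the pan-leukocyte gene CD45, as a covariate at 1.26 (0.0804).

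Promoters of S100a9 and of the receptor genes Cxcr2 and Il1r2 are shown because these 3 genes moved together in AB1. Each run is the 250 bases before the RefSeq start of transcription on the gene's own strand, from GRCm38.p6, with the match to the C/EBP core TTGCNNAA in capitals. C/EBP factors and PU.1 drive the neutrophil programme, and both strands were searched for that core and for the PU.1 core GAGGAAG.
S100a9, chr3:90695722-90695971, reverse strand: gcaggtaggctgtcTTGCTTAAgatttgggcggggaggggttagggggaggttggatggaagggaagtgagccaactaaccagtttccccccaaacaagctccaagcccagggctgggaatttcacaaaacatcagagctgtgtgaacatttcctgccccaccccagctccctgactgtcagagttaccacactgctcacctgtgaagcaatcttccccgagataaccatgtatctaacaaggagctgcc
Cxcr2, chr1:74153744-74153993, forward strand: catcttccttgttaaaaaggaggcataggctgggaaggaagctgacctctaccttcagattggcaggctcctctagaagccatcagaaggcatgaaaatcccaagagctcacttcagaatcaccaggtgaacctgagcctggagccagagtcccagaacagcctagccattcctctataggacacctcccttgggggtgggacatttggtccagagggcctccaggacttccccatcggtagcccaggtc
Il1r2, chr1:40085843-40086092, forward strand: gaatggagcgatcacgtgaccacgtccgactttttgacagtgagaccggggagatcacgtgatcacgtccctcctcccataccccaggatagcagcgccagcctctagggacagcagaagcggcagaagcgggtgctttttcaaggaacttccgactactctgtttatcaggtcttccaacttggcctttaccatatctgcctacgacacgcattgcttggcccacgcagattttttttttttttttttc
The S100a9 promoter held 1 C/EBP match, 236 to 229 bases before the start, and neither of the other windows held one. None of the 3 windows held the PU.1 core. The Il1r2 window lies inside the gene, which spans chr1:40074079-40125231, so it precedes an internal start. A window before the first base of that gene is not shown, and the absence of a match concerns the printed window only. Among 32851 mouse promoters of the same length, 9.56% held the C/EBP core and 10.6% the PU.1 core, so a match is a description of the letters.

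Of 17203 genes tested over both tumour types, 4 passed (0.0233%; 0.0174% higher and 0.00581% lower), beside 1996 at an unadjusted p under 0.05 (11.6%). The other 3 were 2010005H15Rik, Gpm6b and Cdon. 2010005H15Rik, an unnamed gene on chromosome 16 (chr16:36221468-36257444), rested on few reads. It had 10 to 16 reads in low and 31 to 70 in high libraries of AB1 responders, 0 to 3 and 4 to 15 in AB1 non-responders, and at most 3 in any Renca library. It rose by 2.00 ± 0.35 (adjusted p = 0.0253), and both AB1 groups were without overlap.

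Gpm6b encodes a membrane proteolipid known from neurons and glia (chrX:166238911-166388988). It stood at 54.3, 66.3, 76.2 and 77.1 CPM in low and 79.5, 89.1, 92.7 and 99.5 in high libraries of AB1 responders, at 38.2 to 42.9 against 42.9 to 53.4 in AB1 non-responders, at 13.4 to 15.4 against 14.6 to 18.7 in Renca non-responders and at 12.9 to 17.8 against 16.3 to 20.8 in Renca responders. The groups other than AB1 responders overlapped or touched, and the rise was small, at 0.33 ± 0.06 (adjusted p = 0.0253). Cdon, a cell-surface co-receptor of Hedgehog signalling (chr9:35421128-35507652), was the only fall. Its CPM were 27.7, 28.6, 30.5 and 34.5 in low and 17.6, 18.1, 23.3 and 25.7 in high libraries of AB1 responders. It stood at 39.1 to 57.0 against 38.5 to 49.0 in AB1 non-responders, 33.8 to 40.3 against 25.7 to 37.9 in Renca non-responders and 33.9 to 67.0 against 25.8 to 42.1 in Renca responders, all 3 with overlap. Cdon fell by 0.44 ± 0.08 on the log2 scale (adjusted p = 0.0371), and was called in 15 of the 32 fits with 1 library left out.

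How many genes passed depended on single libraries and on the model. Without AB1 responder 2, 6 or 12, edgeR called 0 genes (2210, 1645 and 1100 at an unadjusted p under 0.05), and DESeq2 on all 32 libraries called 40. By limma voom 30 genes passed with no block, 35 with the sequencing lane as a block and 45 with the replicate number as a block, 34 of these higher and 11 lower, against 4 by edgeR. Among the neutrophil, cytokine and oxidase genes the 45 included S100a9 with Cxcr2, Il1r2, Il1f9, Trem1, Cxcl5, Hcar2, Mrgpra2a and Mrgpra2b, and their blocked estimates were 1.54, 1.45, 1.12, 1.74, 1.02, 1.40, 1.27, 1.49 and 1.54 (adjusted p = 7.96e-05, 7.96e-05, 0.00170, 0.000145, 0.0182, 0.0182, 0.0297, 0.0167 and 0.00794). With no block, Hcar2 did not pass and the others did.

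The lists of neutrophil, recruitment, NADPH oxidase and cytokine genes named 112 genes, of which 99 were in the table and 91 passed the filter on low counts. Because the filter keeps a gene that is abundant in either class, the 91 are not all members. Of them 80 had a log2 fold change above 0, beside 45.2% of all genes tested, and 35 were higher at an unadjusted p under 0.05, beside 4.84%. None was lower at that p, beside 6.77% of all genes, and their median log2 fold change was 0.30, beside -0.01 for all genes. The same shares of all genes stand beside the counts of each list below. By group, 79 were above 0 in responders and 59 in non-responders of AB1, and 71 and 51 in those of Renca. The share of all genes above 0 in each single group is not reported here, so these counts are a description. In AB1 non-responders, where class and flow cell coincide, the sign also rests on a flow cell term estimated from AB1 responders. The sum of the mature neutrophil list was 337 to 594 CPM in low and 793 to 1029 in high libraries of AB1 responders, without overlap. The other groups overlapped, at 94.9 to 294 against 187 to 417 for AB1 non-responders, 340 to 430 against 390 to 421 for Renca responders and 367 to 410 against 328 to 515 for Renca non-responders. The receptor sum was also without overlap in AB1 responders, at 764 to 1235 against 1512 to 2060 CPM. Recruitment sums had none there (429 to 779 against 857 to 1209) or in Renca responders (282 to 347 against 378 to 435). The late granule sum separated the classes in Renca responders, at 497 to 545 against 558 to 644 CPM. These sums overlapped in the other groups. In AB1 some sums did not follow. The median of the late granule list was 1220 CPM in low and 1093 in high libraries of AB1 responders and 1966 and 1580 in AB1 non-responders. That of the list of genes of tumour neutrophils was 5040 and 3724, and 7715 and 6441. Both lists overlapped in both AB1 groups. A sum of CPM is set mostly by its most abundant genes, and the gene counts went the other way. In AB1, 10 of 14 tested late granule genes and 7 of 9 genes of the tumour neutrophil list were above 0. Of all 17203 genes tested, 8214 were.

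Of the neutrophil receptor list, 18 of 18 tested genes were above 0, 12 of them higher at an unadjusted p under 0.05 and a median of 0.34. None passed adjustment over both tumour types together. Cxcr2, the receptor of the neutrophil-attracting CXC chemokines (chr1:74153989-74161246), had CPM of 21.4, 29.1, 30.5 and 43.0 in low and 60.7, 87.6, 91.6 and 96.9 in high libraries of AB1 responders. AB1 non-responders held 2.55, 4.51, 4.55 and 4.98 CPM against 10.4, 14.3, 16.9 and 29.0. Both AB1 groups were without overlap, while Renca libraries held 14 to 51 reads and overlapped in both groups. Over all groups Cxcr2 was 1.06 ± 0.22 higher (adjusted p = 0.0795), and without the flow cell term it stood at 1.26 (0.00444).

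Il1r2, the decoy receptor that binds interleukin-1 without signalling (chr1:40074079-40125231), separated the classes in 3 groups. Its CPM were 19.1, 19.6, 20 and 22.8 in low and 40.8, 46.8, 61.8 and 81.7 in high libraries of AB1 responders, and 3.63, 4.98, 5.72 and 8.19 against 9.33, 12.4, 17.8 and 22.5 in AB1 non-responders. Renca responders held 4.26, 4.59, 4.79 and 5.58 against 7.26, 7.45, 7.72 and 7.93 CPM, also without overlap, and Renca non-responders overlapped at 5.55 to 8.00 against 5.46 to 8.84. Over all groups it was 0.87 ± 0.18 higher (adjusted p = 0.0795). Csf3r, the receptor of granulocyte colony-stimulating factor, held 118, 161, 196 and 211 CPM in low and 261, 349, 419 and 424 in high libraries of AB1 responders. In Renca responders it held 55.8, 56.6, 58.4 and 64.5 against 66.5, 68.3, 71.7 and 87.4, so these 2 groups were without overlap. The difference over all groups was smaller than for the chemokine receptor, at 0.47 ± 0.17 (adjusted p = 0.328). Trem1, a receptor that amplifies inflammatory signals in neutrophils and monocytes, stood at 0.81 ± 0.21 (adjusted p = 0.193).

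**Figure D2:**
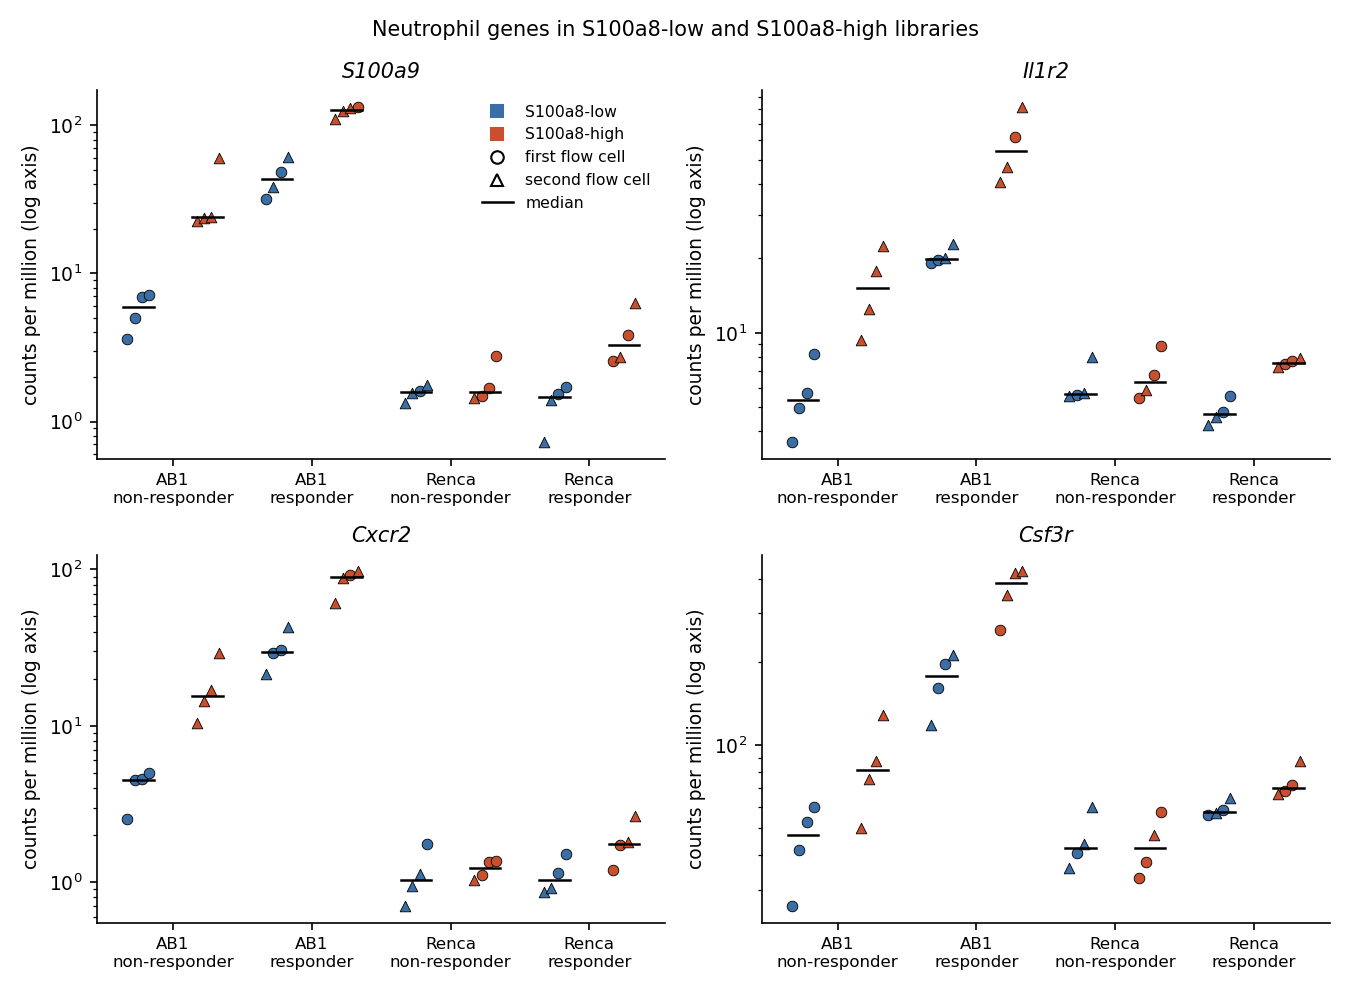
CPM on a log axis of S100a9, Il1r2, Cxcr2 and Csf3r in the 32 compared libraries, by group, with S100a8-low in blue, S100a8-high in red, circles for the first and triangles for the second flow cell, and a line at each median. The red points stand above the blue ones in AB1 responders for all 4 genes, and in Renca non-responders the colours overlap for all 4.

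The mature neutrophil list had 13 of 13 tested genes above 0, 9 higher at an unadjusted p under 0.05 and a median of 0.75. S100a9 was its only gene past adjustment. Il1f9, which encodes interleukin-36 gamma, held 2.54 to 9.25 CPM in low and 14.8 to 21.5 in high libraries of AB1 responders and 0.563 to 1.33 against 1.48 to 5.33 in AB1 non-responders, with at most 7 reads in any Renca library. Both AB1 groups were without overlap, and its difference over all groups was 1.27 ± 0.27 (adjusted p = 0.101). Clec4d, a C-type lectin of myeloid cells, separated the classes in both responder groups, at 23.3 to 37.6 against 51.6 to 98.1 CPM in AB1 and 7.79 to 10.7 against 12.5 to 16.3 in Renca. Its difference was 0.75 ± 0.20 (adjusted p = 0.193). Hdc, the enzyme that makes histamine, also separated them in both, at 53.3 to 87.6 against 97.5 to 143 CPM in AB1 and 7.06 to 10.4 against 10.5 to 13 in Renca (0.66 ± 0.19, adjusted p = 0.204).

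The late granule list had 11 of 14 tested genes above 0, 2 higher at an unadjusted p under 0.05 and a median of 0.22. Lcn2, an iron-withholding protein of neutrophils and inflamed epithelium, held 2.96, 18.8, 36.4 and 61.0 CPM in low and 49.2, 94.3, 129 and 130 in high libraries of AB1 responders, with overlap, and 0.35 ± 0.36 over all groups (adjusted p = 0.726). By median CPM from low through uncompared to high libraries, Lcn2 rose in 1 of the 4 groups and fell in 2. Ltf, the iron-binding lactoferrin of secondary granules, stood at 0.94 ± 0.28 (adjusted p = 0.234) but on at most 86 reads in AB1 and 12 in Renca. Mmp9, a gelatinase of neutrophil granules and of other cells, reached 1301 CPM in an S100a8-low library of AB1 non-responders and overlapped in every group (-0.18 ± 0.32, adjusted p = 0.844). Only Prtn3 of the 6 early granule genes was tested, at -0.26 (adjusted p = 0.625), and the other 5 were not tested.

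Recruitment genes had 14 of 14 tested above 0, 5 higher at an unadjusted p under 0.05 and a median of 0.43. Cxcl5, a neutrophil-attracting chemokine, held 29.7, 61.3, 74.0 and 171 CPM in low and 132, 167, 252 and 266 in high libraries of AB1 responders, which overlapped, and 9.63 to 14.6 against 18.1 to 48.8 in AB1 non-responders, which did not (0.85 ± 0.25 over all groups, adjusted p = 0.243). Csf2, the granulocyte-macrophage growth factor, separated the classes in Renca responders at 0.973 to 1.36 against 1.59 to 4.12 CPM (0.82 ± 0.22, adjusted p = 0.200). Cxcl1 and Cxcl2, the ligands of CXCR2, overlapped in every group and stood at 0.40 ± 0.27 (adjusted p = 0.554) and 0.57 ± 0.30 (0.459).

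The 5 tested NADPH oxidase genes were all above 0, with 4 higher at an unadjusted p under 0.05 and a median of 0.30. Cybb, the membrane subunit that carries electrons to oxygen, overlapped in every group and stood at 0.37 ± 0.19 (adjusted p = 0.446), and its membrane partner Cyba stood at 0.30 ± 0.11 (0.345), also with overlap in every group. Inflammatory cytokines had 12 of 17 above 0, 2 higher at an unadjusted p under 0.05 and a median of 0.17. Il1b, the main secreted interleukin-1 of myeloid cells, stood at 0.00 ± 0.33 (adjusted p = 1.0), with overlap in every group. Il1rn, which encodes the antagonist of the same receptor, stood at 0.65 ± 0.16 (adjusted p = 0.164) and separated the classes in AB1 responders, at 125 to 152 against 193 to 237 CPM, and in Renca responders, at 23.3 to 37.0 against 55.3 to 69.3. The list of genes of tumour neutrophils had 7 of 9 above 0, 1 higher at an unadjusted p under 0.05 and a median of 0.19.

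Within AB1, 349 genes passed (2.03%, beside 18.6% at an unadjusted p under 0.05), 149 higher (0.866%) and 200 lower (1.16%), of which 43 and 18 moved by a log2 fold change of 1 or more. Of the 91 neutrophil, oxidase and cytokine genes, 14 rose and 1 fell. Cxcr2 rose by 1.64 ± 0.26 (adjusted p = 0.00199), Il1r2 by 1.5 ± 0.23 (0.00190), S100a9 by 1.74 ± 0.29 (0.00358) and Il1f9 by 1.80 ± 0.30 (0.00358), and these 4 remained called in all 32 fits with 1 library left out. These AB1 values share their estimate of the spread with Renca: in a fit of the AB1 libraries alone 6 genes passed (5 higher and 1 lower; 2190 at an unadjusted p under 0.05) and none of the 15 did, with Cxcr2 at 1.64 (adjusted p = 0.0595), S100a9 at 1.74 (0.0595), Il1r2 at 1.49 (0.0631) and Il1f9 at 1.80 (0.127). With the 8 AB1 non-responder libraries left out, where class and flow cell coincide, Cxcr2 stood at 1.46 (0.00162), Il1r2 at 1.52 (0.000400), S100a9 at 1.46 (0.00410) and Il1f9 at 1.68 (0.00174). Among the other rises, all called without the AB1 non-responders too, were Cxcl5 at 1.34 ± 0.30 (0.0228), Mmp8, the neutrophil collagenase, at 1.27 ± 0.30 (0.0259), Trem1 at 1.22 ± 0.31 (0.0365), Csf3r at 0.94 ± 0.25 (0.0478), the protease inhibitor gene Slpi at 0.91 ± 0.24 (0.0422), Msrb1, a methionine sulfoxide reductase, at 0.60 ± 0.16 (0.0486) and the chemokine receptor gene Ccr1 at 0.55 ± 0.12 (0.0178). Csf3r and Msrb1 were called in 9 and 6 of the 32 fits with 1 library left out.

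Mrgpra2a and Mrgpra2b, near-identical receptor genes whose reads the counting may have split, stood 1.72 and 1.72 higher in AB1 (adjusted p = 0.0246 and 0.0265) on at most 423 reads. The 1 fall in these lists was Il11, a cytokine of the interleukin-6 family, at -1.12 ± 0.28 (adjusted p = 0.0348). Its CPM were 2.05 to 4.54 in low and 1.39 to 1.71 in high libraries of AB1 responders, without overlap. In AB1 non-responders they were 3.81, 4.42, 6.18 and 13.8 against 2.79, 2.83, 3.40 and 3.83, with a slight overlap. The highest low library there, replicate 3, also carried 1457 CPM of the skin keratinocyte list, beside 94.0 to 110 in the 4 high libraries. With 2 libraries per class taken within each flow cell, Il11 stood at -0.06 (0.926).

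Outside the neutrophil lists, the AB1 genes named here are a selection from the largest changes, by a rule written after the values were seen. Other genes under that rule, such as F7 and Ccl24 among the rises and Col11a1 and Btnl9 among the falls, are not described. Clec7a, the beta-glucan receptor Dectin-1 of myeloid cells, held 74.3, 122, 163 and 178 CPM in low and 319, 335, 370 and 424 in high libraries of AB1 responders, and 19.5 to 46.7 against 38.5 to 83.2 in AB1 non-responders. The first group was without overlap and the second was not, and Clec7a rose by 1.32 ± 0.28 (adjusted p = 0.0156). Slc7a2, a transporter of arginine and other cationic amino acids, rose by 1.59 ± 0.32 (0.0111), from 21.1 to 29.6 CPM in low to 44.5 to 107 in high libraries of AB1 responders. Among the falls, in a group where 4.65% of genes had all 4 high libraries below all 4 low ones, Dkk2, a secreted Wnt regulator, had 176, 210, 315 and 385 CPM in low and 38.9, 75.1, 103 and 143 in high libraries of AB1 responders, without overlap, and fell by 1.21 ± 0.29 (0.0296). Col10a1, a collagen of hypertrophic cartilage, fell by 2.22 ± 0.46 (0.0151). Lrrc15, a membrane protein of matrix-making fibroblasts, fell by 2.35 ± 0.61 (0.0387), but its low libraries of AB1 responders held 5.15, 5.46, 20.1 and 70.2 CPM against 2.93, 5.22, 5.91 and 5.98 in the high ones. Without AB1 responder 12, the library at 70.2, it stood at -0.80 (0.870). Fitted on AB1 alone, Clec7a, Dkk2 and Col10a1 kept their estimates but did not pass (adjusted p = 0.1504, 0.229 and 0.188). Without AB1 responder 12, 24 genes passed in AB1, and without AB1 responder 2, 2318 did.

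In Renca no gene passed by edgeR (0%), while 607 had an unadjusted p under 0.05 (3.53%). DESeq2 was not run for the Renca effect. S100a9 stood at 0.93 ± 0.31, Il1r2 at 0.40, Cxcr2 at 0.41 ± 0.27 and Il1rn at 0.69 ± 0.21, each with adjusted p = 1.0. Of the 149 genes higher in AB1, 52.3% were above 0 in Renca, beside 51.7% of all genes above 0 in AB1, and their Renca median was 0.01. Of the 200 lower genes, 72.0% were below 0 in Renca, beside 62.1% of all genes below 0 in AB1. The skeletal muscle list summed to 43.0 to 1135 CPM in low and 1699 to 2111 in high libraries of Renca responders, without overlap, and its part in the Renca values was not tested. Overlap of that sum was seen in the other 3 groups, which ran from 82.7 to 3592 CPM.

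**Figure D3:**
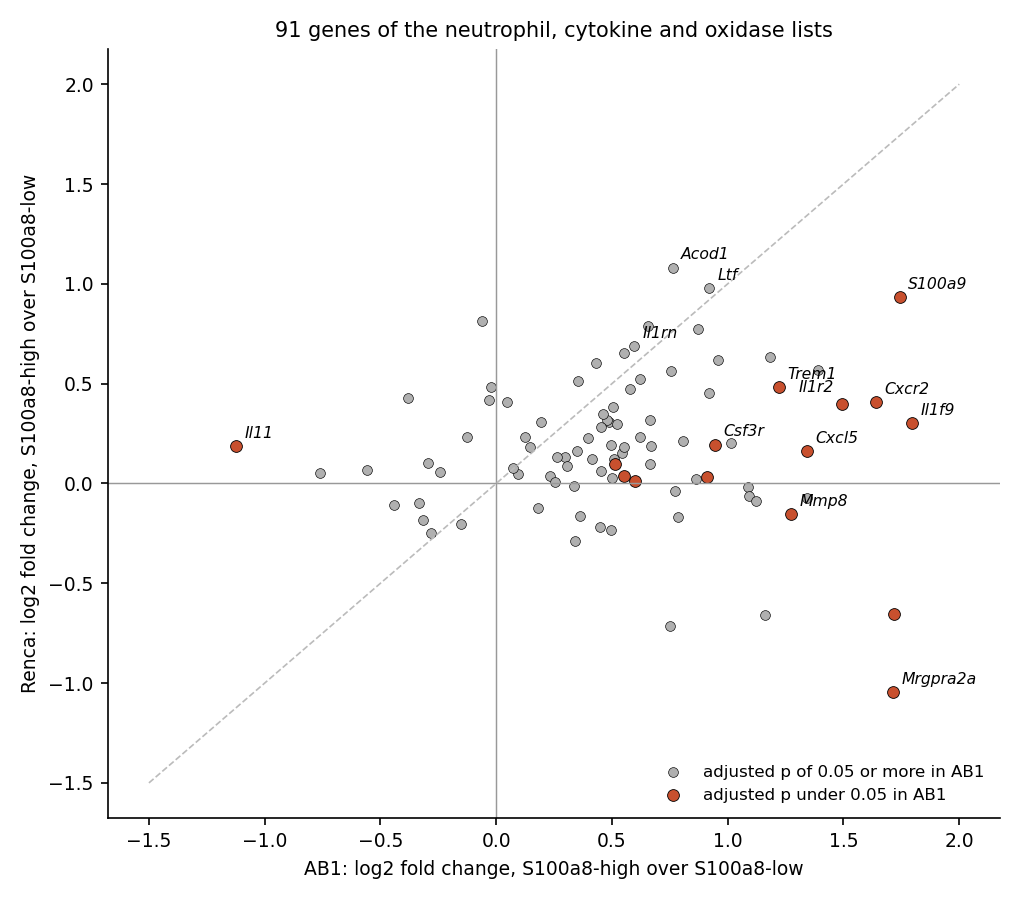
Log2 fold change of S100a8-high over S100a8-low libraries in AB1 (horizontal) and in Renca (vertical) for the 91 tested genes of the neutrophil, oxidase and cytokine lists, with genes past adjusted p 0.05 in AB1 in red and the diagonal dashed. The 15 red genes lie between -1.12 (Il11) and 1.80 (Il1f9) in AB1 and none of them passed in Renca, where S100a9 at 0.93 is the highest of the red ones.

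The difference between the AB1 and the Renca effect passed for 6 genes (0.0349%, beside 10.5% at an unadjusted p under 0.05), all with the larger value in AB1. None was of the neutrophil lists, where the differences were 0.81 for S100a9 (adjusted p = 0.522), 1.24 for Cxcr2 (0.252) and 1.10 for Il1r2 (0.219).

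Tfec, a transcription factor of the macrophage lineage (chr6:16833373-16898441), differed by 1.13 ± 0.17 (adjusted p = 0.00164). It held 8.91, 11.6, 13.5 and 13.6 CPM in low and 18.0, 24.2, 27.6 and 34.0 in high libraries of AB1 responders, without overlap. Renca libraries stood at 18.2 to 25.2 CPM in both classes and both groups. It was called in all 32 fits with 1 library left out. Without the flow cell term the difference was 0.75 (0.103), and with 2 libraries per class taken within each flow cell it was 0.59 (0.398).

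A further 4 genes were Ear1, Ear2, Ear6 and Ear10, ribonuclease genes named for eosinophils, which are closely related genes on chromosome 14 whose reads the counting may have split. Ear2 (chr14:44102654-44103534) held 0.999, 2.30, 2.38 and 2.73 CPM in low and 1.78, 2.83, 3.17 and 16.7 in high libraries of AB1 responders, where 1 library, replicate 2, stood apart. AB1 non-responders held 1.11, 2.82, 3.20 and 3.47 against 2.55, 5.62, 6.58 and 11 CPM, Renca non-responders 36.0 to 66.5 against 20.5 to 42.9 and Renca responders 13.8 to 43.7 against 18.4 to 26.1, all with overlap. The difference for Ear2 was 2.57 ± 0.47 (adjusted p = 0.0236), and without AB1 responder 2 it was 1.54 (0.142). For Ear1 the values were 2.91 ± 0.46 (0.00396) and 1.89 (0.0838), for Ear10 2.82 ± 0.51 (0.0236) and 1.82 (0.139), and for Ear6, on at most 13 reads in AB1 and 0 in 3 low libraries of AB1 responders, 5.18 ± 0.75 (0.00164) and 4.28 (0.136). Without that library 752 genes passed the difference. The same library held the most Ccl17, a chemokine of type 2 immunity, at 15.1 CPM beside 0.954 to 1.80 in the other high libraries of its group, and the most Mgl2, a lectin of macrophages and dendritic cells, at 148 beside 16 to 39.5.

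**Figure D4:**
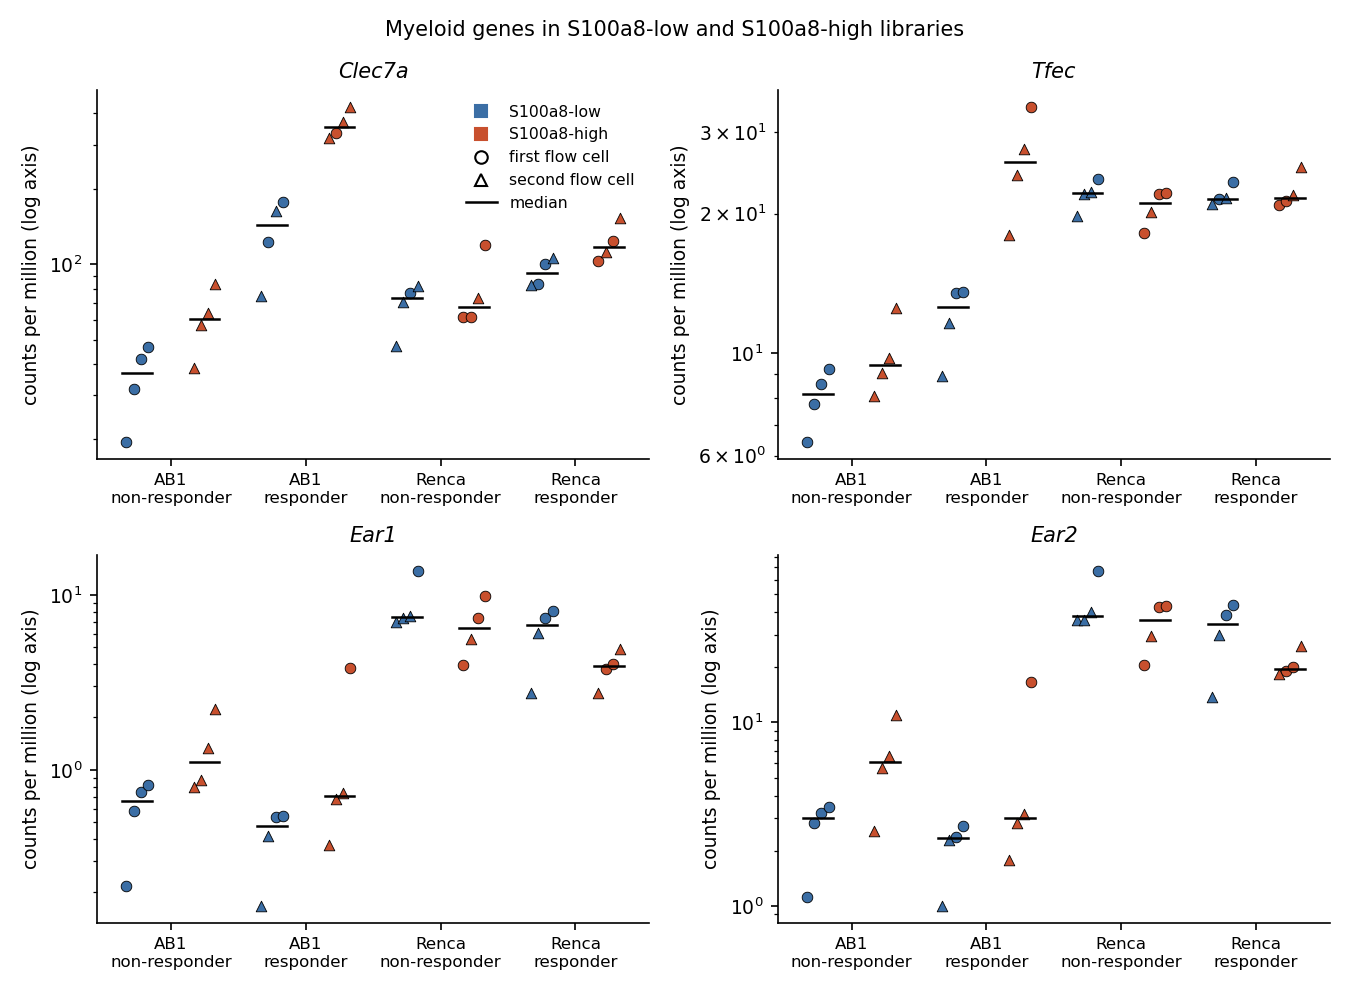
CPM on a log axis of Clec7a, Tfec, Ear1 and Ear2 in the 32 compared libraries, by group, with S100a8-low in blue, S100a8-high in red, circles for the first and triangles for the second flow cell, and a line at each median. Clec7a and Tfec separate the colours in AB1 responders, neither does in Renca, and 1 red circle at 16.7 CPM of Ear2 stands above the rest of AB1 responders.

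Responders and non-responders were compared in how the classes differed, and no gene passed (0%; 1193 at an unadjusted p under 0.05, 6.93%, by edgeR, and 2 adjusted calls by DESeq2). The smallest p was that of Lgi2, at 1.60 ± 0.31 (adjusted p = 0.414), and among neutrophil genes S100a9 differed by 0.15 ± 0.44 (0.953). Within responders of both tumour types 0 genes passed (14.9% at an unadjusted p under 0.05), and within non-responders 0 (5.20%), by edgeR with no other tool run.

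T cell, NK and MHC class II genes went the same way as the neutrophil receptor list by sign, and no member passed adjustment over both tumour types. T cell genes were above 0 in 18 of 18, 7 of them higher at an unadjusted p under 0.05, with a median of 0.38. The shares of all genes were 45.2% above 0 and 4.84% higher at that p. NK and cytotoxic genes were above 0 in 14 of 14, with 7 higher and a median of 0.52, and MHC class II genes in 9 of 9, with 7 higher and a median of 0.35. Cd8a, a chain of the CD8 co-receptor, held 14.1, 14.7, 21.7 and 27.4 CPM in low and 21.5, 55.4, 59.0 and 64.4 in high libraries of AB1 responders, where replicate 2 was the high library inside the low range (0.72 ± 0.26 over all groups, adjusted p = 0.328). Cd86, a ligand of CTLA4 and CD28, separated the classes in both responder groups, at 58.7 to 77.3 against 86.4 to 109 CPM in AB1 and 35.8 to 44.0 against 58.7 to 64.3 in Renca (0.49 ± 0.13, adjusted p = 0.193). Havcr2, which encodes the checkpoint receptor TIM-3, stood at 0.48 ± 0.12 (adjusted p = 0.193). The T cell list summed to 365 to 547 CPM in low and 503 to 858 in high libraries of AB1 responders, with overlap. The MHC class II sum separated the classes in both responder groups, at 5131 to 6425 against 6762 to 10759 CPM in AB1. In Renca responders it was 4899 to 5651 against 5891 to 7650 CPM. The sum of the checkpoint list separated them in AB1 responders, at 672 to 1024 against 1099 to 1440 CPM. The part of these lists in the values of the neutrophil genes was not tested.

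Stromal lists went the other way. Fibroblast and matrix genes were above 0 in 1 of 14, with 5 lower at an unadjusted p under 0.05, beside 6.77% of all genes, and a median of -0.21 (-0.37 in AB1 and -0.03 in Renca). Fap, a protease of activated fibroblasts, held 24.2, 24.4, 34.2 and 43.9 CPM in low and 11.9, 14.2, 17.6 and 27.2 in high libraries of AB1 responders, where replicate 2 was the high library inside the low range (-0.42 ± 0.14 over all groups, adjusted p = 0.307). Endothelial genes were above 0 in 2 of 12, with 4 lower and a median of -0.16, and proliferation genes in 0 of 18, with 1 lower and a median of -0.13. Monocyte and macrophage genes, which share lineage with neutrophils, had medians of 0.19 and 0.12, with 0 and 4 higher at an unadjusted p under 0.05, and type I interferon genes a median of 0.09.

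**Figure D5:**
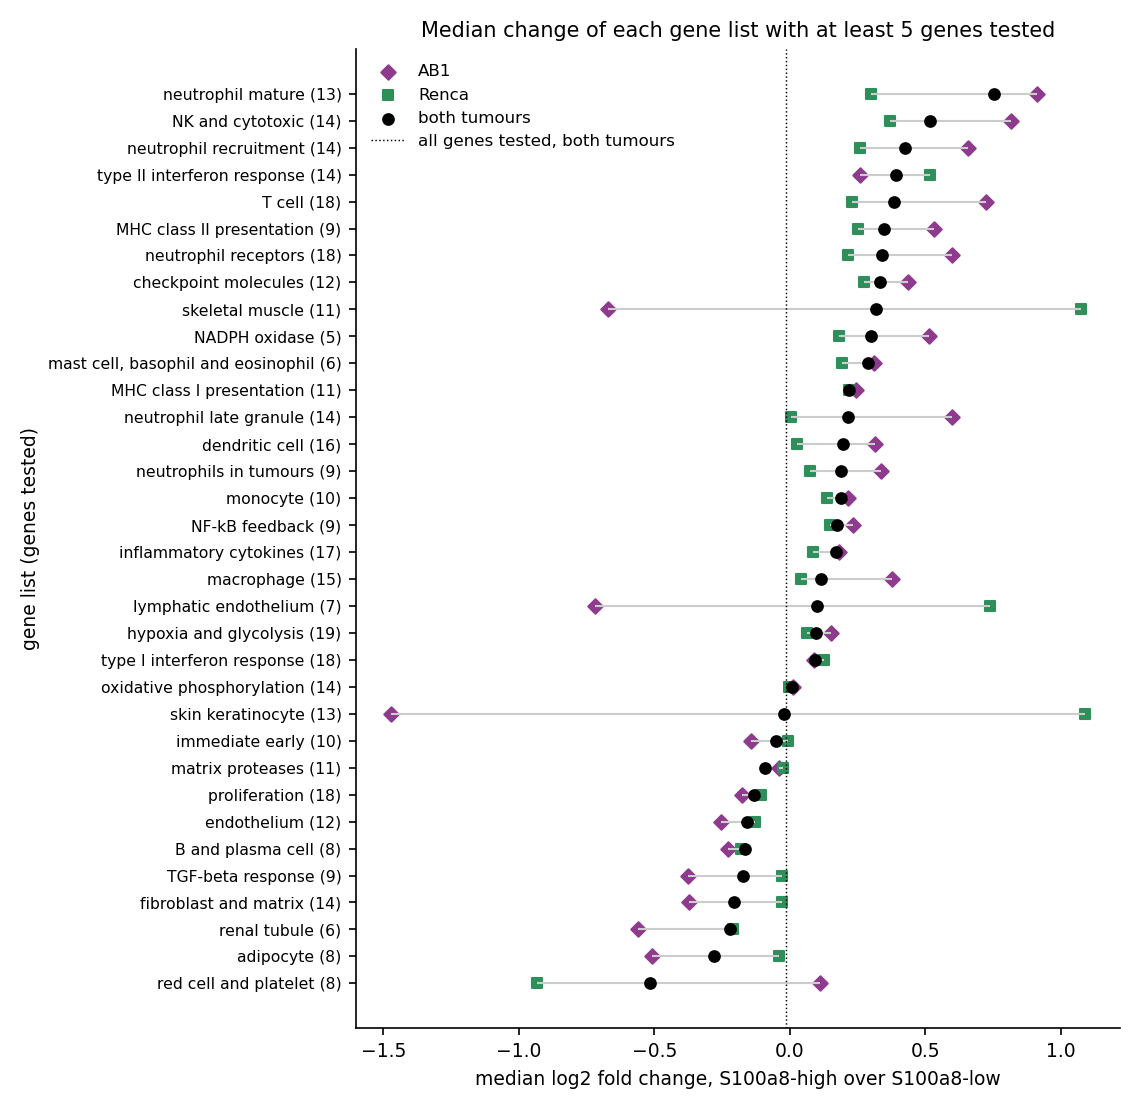
Median log2 fold change of S100a8-high over S100a8-low libraries for each gene list with at least 5 tested genes (number in brackets), over both tumour types (black), in AB1 (purple) and in Renca (green), with a dotted line at the median of all genes. Mature neutrophil genes lead at 0.75 over both types, and the skin, muscle and lymphatic lists lie on opposite sides of the line in AB1 and Renca.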

How the data were processed

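Gene counts of 48 whole tumours (12 per group) were analysed. The authors deposited raw, whole-number counts per gene for 39637 mouse Ensembl genes, of which 8466 had no count in any library. Tools named in the submitters' processing notes are StringTie 1.3.0, HISAT2 2.0.4 and bcl2fastq 2.18.0.12, and the builds are the human GRCh37 and hg19. The counting tool, and the strand, mouse build and annotation behind it, were not given in the sources used here. GRCm38 coordinates (GENCODE M21; 216 of 216 named genes matched) may not be those of the authors' build. Several neutrophil genes (Retnlg, the Stfa genes, Elane, Ctsg, Cebpe, Trem3, Arg1) are not analysed here, and some called genes are not reported here.

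Classes were fitted with edgeR 4.0.16 (TMM scaling, filterByExpr, quasi-likelihood F test, Benjamini-Hochberg adjustment at 0.05 over all tested genes but S100a8) in R 4.3.3. Terms were group, the second flow cell of each tumour type and class, with class by tumour type and class by response for the differences. A standard error is the log2 fold change divided by the square root of F. Intervals cover counting error only. The labels give 1 mouse per sample, and p-values concern libraries chosen on S100a8 in the same data. The members, the gene lists and the rules were chosen with earlier results of these data known. Named genes were the neutrophil, oxidase and cytokine lists, the 15 largest rises and falls with mean log2 CPM of at least 1, the 3 members of smallest p in each other list and the 5 of smallest p in each direction of each difference. The AB1 rule was added after the values were seen.

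Per the labels, the responder and the non-responder of 1 number were run in 1 lane in 24 of 24 pairs, but numbers 9 to 12 of each tumour type also shared 1 lane, so the lane was tried as a block as well, and 10 of 24 pairs had correlated deviations over 0.1 (-0.12 to 0.49). Alternatives used DESeq2 1.42.0 and limma 3.58.1. The fits were tested on simulated data.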

Additional observations from a re-analysis of the deposited data

Results flagged for a closer look

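Gaps between 1 library and the rest of its 4 were looked for in 20 genes and 160 sets of 4 libraries, and 17 sets had one. Independent normal values would give about 1 in 20. The genes were chosen with results known and some may share reads, so the number is no test against chance. AB1 responder 2 was the far library in 5 of them, as the highest S100a8-high library of its group for Ear1 (3.82 CPM), Ear2 (16.7), Ear6 (0.551), Ear10 (4.83) and Ccl17 (15.1). Renca non-responder 1 was the highest S100a8-low library for Ear1 (13.6 CPM), Ear2 (66.5) and Mgl2 (218). AB1 non-responder 3, which also carried the most skin keratinocyte RNA, was the highest S100a8-low library for Lrrc15 (255 CPM).

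Other single libraries stood apart in genes named above. AB1 non-responder 11 was the highest S100a8-high library for S100a9 (60.1 CPM), and AB1 non-responder 5 the highest S100a8-low library for Cxcl5 (14.6 CPM). In Renca non-responders, replicate 8 was the highest S100a8-low library for Il1r2 (8.00 CPM), replicate 4 the highest S100a8-high library for Trem1 (5.67 CPM) and replicate 5 for Ear6 (1.45 CPM). For 2010005H15Rik the gap lay at 0.0557 CPM in Renca non-responder 11 and 0.122 CPM in Renca responder 9, and for Ear6 at 0.0417 CPM in AB1 responder 3, each on at most 2 reads.

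Differences of the S100a8 effect between AB1 and Renca passed the test of the difference for Tfec (1.13 on the log2 scale), Ear1 (2.91), Ear2 (2.57), Ear6 (5.18) and Ear10 (2.82).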

How the results depend on the processing

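Counts of genes past adjusted p 0.05 moved with the setting. Over both tumour types, where 4 passed, the count was 2 with an absolute log2 fold change of at least 1, 2 with no filter on low counts, 41 with no flow cell term (21 higher, 20 lower), 0 with 3 libraries per class, 77 with 6, 40 with DESeq2 (23 higher, 17 lower), 45 with the replicate block (34 higher, 11 lower), 35 with the lane as a block and 30 with limma voom and no block, 40 (10 higher, 30 lower) with the RNA purity as covariates, 0 with Ptprc as a covariate (901 at an unadjusted p under 0.05), 0 in the first flow cells (675) and 0 in the second (3054), 6 in AB1 alone, 1 in Renca alone and 2 with 2 libraries per class within each flow cell. S100a8 as a continuous term over 48 libraries gave 1772, and 1311 with the replicate block. Ranking by Csf3r gave 4516. Without 1 library the count was 0 to 12, with 0 without AB1 responder 2, 6 or 12, 2 without Renca responder 1, 7 without Renca responder 11, 9 without AB1 non-responder 3 and 12 without Renca non-responder 12.

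For the AB1 effect (349), AB1 libraries alone gave 6 (5 higher, 1 lower), no filter 177, no flow cell term 1440 (754 higher, 686 lower), 6 libraries per class 1733, leaving out AB1 non-responders 1599, 2 per class within each flow cell 600 (349 higher, 251 lower) and leaving out the 2 libraries with skin RNA, AB1 non-responder 3 and responder 3, 1116. Without 1 library it was 24 to 2318, with 993 without AB1 non-responder 3 and 196, 225, 208, 24 and 2318 without AB1 responder 7, 9, 10, 12 and 2. For the Renca effect (0), Renca libraries alone gave 1, no filter 2 and leaving out 1 library 0 to 0. For the difference between tumour types (6), no flow cell term gave 18, DESeq2 48, 2 per class within each flow cell 1 and leaving out the 2 skin libraries 26, and without 1 library it was 4 to 752, with 752, 34 and 12 without AB1 responder 2, AB1 non-responder 3 and AB1 responder 6. With the replicate block this difference had 6 calls, and Ear10 no longer passed (adjusted p = 0.0695). For the difference by response (0), DESeq2 gave 2 and leaving out 1 library 0 to 1, the 1 without AB1 non-responder 5.

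Ccl17 in AB1 (1.63) changed sign without AB1 responder 2, and ran from -0.31 to 2.24 over the fits without 1 library. The settings without AB1 non-responders, without the skin libraries and with 2 libraries per flow cell, the lane and unblocked voom fits, and the AB1 and Renca effects under each setting, were chosen after seeing the data. The cause of these changes was not tested. In Renca, S100a8 rested on 13 to 42 reads, so the classes there are set partly by counting error.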

Other observations

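Some lists of tissues outside the tumour had medians of opposite sign in AB1 and Renca, and the difference was not tested. Skin keratinocyte genes had a median log2 fold change of -1.47 in AB1 and 1.09 in Renca, skeletal muscle genes -0.67 and 1.07, and lymphatic endothelial genes -0.72 and 0.74, and none of these members passed in either tumour type. Adipocyte genes had medians below 0 in both (-0.51 and -0.04). In AB1 non-responders the summed skin list had medians of 101 CPM in both classes, with 1 low library at 1457. Red cell and platelet genes had a median of 0.11 in AB1 and -0.93 in Renca, where their sum was 182 to 221 CPM in S100a8-low and 75.2 to 155 in S100a8-high libraries of non-responders, without overlap.

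Mast cell, basophil and eosinophil genes were above 0 in 6 of 6 tested, 3 of them higher at an unadjusted p under 0.05, with a median of 0.29. Type II interferon genes were above 0 in 14 of 14 and MHC class I genes in 11 of 11, with medians of 0.39 and 0.22, 0 members at an unadjusted p under 0.05 and 0 past adjustment by edgeR. B and plasma cell genes were above 0 in 1 of 8, with a median of -0.16. Cox5a, a subunit of cytochrome c oxidase, rose by 0.56 ± 0.10 in AB1 (adjusted p = 0.00358) while the oxidative phosphorylation list had a median of 0.01 in AB1.

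Median CPM of the S100a8-low, the uncompared and the S100a8-high libraries stood in that rising order in 4 of 4 groups for 11 of the 216 named genes (2010005H15Rik, Gpm6b, Asprv1, Batf3, Ccl3, Havcr2, Irf8, Itgal, Klrc1, Ncf4 and Pdcd1) and in 3 of 4 for 43, among them S100a9, Cxcr2, Il1r2, Csf3r, Trem1 and Cxcl5. Spp1, which encodes osteopontin, stood in falling order in 4 of 4.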
